A study of Homo sapiens with 8 samples.

Results

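Hypoxia target genes that do not encode enzymes of glycolysis were examined in RNA-seq libraries of the clear cell renal cell carcinoma (ccRCC) lines A498 and 786-O. The 10 genes were VEGFA, CA9, CA12, ADM, NDRG1, BNIP3, ANKRD37, ANGPTL4, P4HA1 and LOX. They were chosen by name, with earlier results of these data known, as genes known to be turned on by the hypoxia-inducible factors (HIFs). The level of each was the sum of its RefSeq transcripts. They are 10 of 22678 genes in the deposited files. Of these, 9, all but CA9, were among the 11367 genes with a mean of at least 1 FPKM (read fragments scaled to transcript length and library depth) and entered the tests.

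The study asked how the transcriptome of ccRCC cells changes when SLINKY, a long intergenic noncoding RNA, is knocked down. Each cell line gave 4 libraries, which were 2 with non-targeting control siRNA (NTC 1 and NTC 2), 1 with SLINKY siRNA 1 and 1 with SLINKY siRNA 2. All cells, controls included, received a lipid transfection reagent and siRNA at 50 nM, and the labels give 16 hrs of transfection, while the methods of the study state a later time for the isolation of RNA. Each line stands for 1 tumor, A498 was grown in DMEM and 786-O in RPMI-1640, and so the cell line and its medium cannot be told apart. Nothing in the labels says that libraries of a group came from separate cultures, so p-values measure the spread between these libraries, which may be technical. Each siRNA had 1 library per line. The labels call all siRNAs pools, whereas the methods of the study describe separate siRNAs to the SLINKY transcript.

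In cells with working VHL protein, the alpha subunits of HIF are hydroxylated by oxygen-dependent prolyl hydroxylases, bound by VHL and degraded. When oxygen falls, or when VHL is lost as in most ccRCC, the alpha subunits persist, pair with ARNT and bind short DNA motifs near their targets. Targets outside glycolysis form blood vessels (VEGFA, ADM, ANGPTL4) and regulate pH (CA9, CA12). Others act on mitochondria and stress (BNIP3, NDRG1) or build the extracellular matrix (P4HA1, LOX). ANKRD37, an ankyrin repeat protein, was not placed in these groups.

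Of the promoters, 8 of the 10 members matched a RefSeq entry (assembly GRCh38.p14), namely those of CA9, CA12, ADM, BNIP3, ANKRD37, ANGPTL4, P4HA1 and LOX. The 250 bases before the transcription start were searched on both strands for ACGTG and GCGTG, the core letters of the HIF binding motif. All 8 genes held at least 1 match in a window before a start, against 47.4% of the 27305 genes in the table counted in the same way, and 43.2% of its 35116 single promoters. The windows of 4 genes are shown because CA9, CA12 and ANGPTL4 were higher in A498, and P4HA1 was higher in 786-O. Capitals mark the matches, read on the strand of the gene, where CACGT and CACGC are the same motifs on the opposite strand.
CA9, chr9:35673678-35673927, plus strand: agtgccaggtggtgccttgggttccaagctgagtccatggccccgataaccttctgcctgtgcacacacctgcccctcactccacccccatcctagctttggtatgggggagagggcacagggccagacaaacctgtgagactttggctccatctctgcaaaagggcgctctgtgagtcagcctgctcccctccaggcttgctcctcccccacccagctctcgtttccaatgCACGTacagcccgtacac
CA12, chr15:63381847-63382096, minus strand: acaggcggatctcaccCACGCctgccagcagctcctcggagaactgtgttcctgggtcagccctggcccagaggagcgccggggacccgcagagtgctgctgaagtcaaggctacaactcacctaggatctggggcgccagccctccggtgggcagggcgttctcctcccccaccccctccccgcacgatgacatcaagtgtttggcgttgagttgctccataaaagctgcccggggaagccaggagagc
ANGPTL4, chr19:8363905-8364154, plus strand: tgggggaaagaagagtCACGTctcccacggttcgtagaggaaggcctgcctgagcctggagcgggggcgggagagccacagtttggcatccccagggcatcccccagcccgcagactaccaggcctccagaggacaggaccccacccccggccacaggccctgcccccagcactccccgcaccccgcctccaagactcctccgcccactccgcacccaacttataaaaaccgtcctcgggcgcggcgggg
P4HA1, chr10:73096867-73097116, minus strand: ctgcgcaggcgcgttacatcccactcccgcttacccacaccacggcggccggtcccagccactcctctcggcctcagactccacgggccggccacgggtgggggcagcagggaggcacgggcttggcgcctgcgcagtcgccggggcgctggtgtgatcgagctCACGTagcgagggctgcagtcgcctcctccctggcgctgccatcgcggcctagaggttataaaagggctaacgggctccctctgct
The match nearest to the start was 18 bases before it in CA9 and 86 in P4HA1, and lay 234 bases before it in CA12 and in ANGPTL4. BNIP3 had 6 matches between 104 and 143 bases before its start, ANKRD37 had 3, ADM had 1, and the windows before the 3 LOX starts had 2, 2 and 4, of which the first pair overlap. CACGTG reads ACGTG on both strands and was counted as 2 matches, at 134 and 133 bases in BNIP3 and 162 and 161 in ANKRD37. The searched letters are therefore found in genes higher in either line, and a match is a description of the sequence, not evidence that HIF was bound there.

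The libraries held between 25097617 and 64600588 mapped reads, estimated from the FPKM steps of single-exon transcripts. SLINKY itself was at 14.6 and 16.1 FPKM in the A498 NTC libraries, 1.64 with siRNA 1 and 3.01 with siRNA 2, and in 786-O at 1.45 and 1.39 FPKM in NTC, 0.0569 with siRNA 1 and 0.594 with siRNA 2. It was thus lowest with siRNA 1 in both lines. Of 8 markers of renal tubule and renal carcinoma, 7 in A498 and 8 in 786-O had a mean of at least 1 FPKM, and the leukocyte genes PTPRC and CD3E were at 0 in every library. The summed level of 4 endothelial markers was at most 0.302 FPKM. CD68, the third leukocyte gene on that list, brought its sum to 138 to 151 FPKM in A498 and 1.70 to 5.20 in 786-O. The sum of 3 fibroblast markers was 2.96 to 3.45 and 0.270 to 0.356 FPKM. Most of it was COL1A1, at means of 3.19 FPKM in A498 and 0.236 in 786-O. DCN was at 0.0324 and 0.00616, and PDGFRB went the other way at 0.0305 and 0.0819. The part of the leukocyte and fibroblast markers in the differences between the lines was not tested.

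Among the regulators of the pathway, HIF1A, which encodes the alpha subunit of HIF-1, was at 27.1 to 30.7 FPKM in A498 and at 1.56 to 2.06 in 786-O. EPAS1, which encodes the alpha subunit of HIF-2, was at a mean of 9.89 ± 0.415 FPKM (SD, n = 4) in A498 and 7.46 ± 0.495 (SD, n = 4) in 786-O. VHL transcripts were at 4.53 ± 0.427 and 7.84 ± 0.540 FPKM (SD, n = 4 each). HIF1A was the gene of the HIF control list with the smallest p between the lines, with a log2 difference of 3.95 ± 0.069 (SE, limma adjusted p = 3.93e-09).

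Most members differed between the cell lines, but so did most genes. With limma, 8 of the 9 tested members had an adjusted p under 0.05 between A498 and 786-O, 6 higher in A498 (VEGFA, CA12, NDRG1, ANKRD37, ANGPTL4 and LOX) and 2 lower (ADM and P4HA1). Of all 11367 genes 80.5% passed the same test, 39.1% higher and 41.4% lower, so the number of members called was close to the background. ANKRD37 and LOX passed the filter of 1 FPKM only through A498, the line in which they were higher (786-O means 0.705 and 0.773 FPKM), so their direction was favored by the filter, while the other 7 reached 1 FPKM in both lines. The 4 libraries of A498 and the 4 of 786-O did not overlap for 8 of the 9 tested members, 6 above and 2 below, and for 75.5% of the genes tested, 36.6% above and 38.9% below. CA9, which was not tested, did not overlap either.

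**Figure D1:**
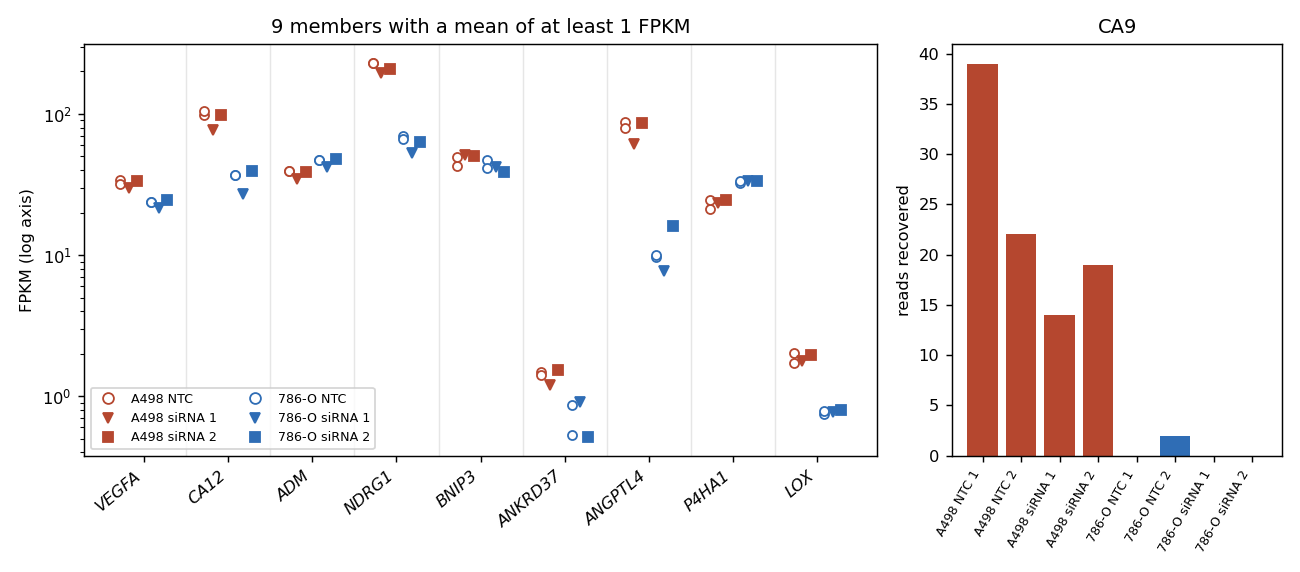
Left, FPKM (log axis) of the 9 tested members in each library, with A498 in red, 786-O in blue, circles for NTC, triangles for siRNA 1 and squares for siRNA 2. Right, reads recovered for CA9 in each library, from 14 to 39 in A498 and 2 in all of 786-O. ANGPTL4 shows the widest gap of the tested members, with A498 between 60.9 and 87.2 FPKM and 786-O between 7.75 and 16.0, and BNIP3 is the member whose lines overlap.

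The ligands were led by ANGPTL4, a secreted protein that inhibits lipoprotein lipase and acts on blood vessels (hg19, chromosome 19, 8429011 to 8439257). ANGPTL4 was at 87.2 and 80.0 FPKM in the A498 NTC libraries, 60.9 with siRNA 1 and 86.6 with siRNA 2, and at 9.61 and 10.1 FPKM in the 786-O NTC libraries, 7.75 with siRNA 1 and 16.0 with siRNA 2. Every A498 library was above every 786-O library, by 2.88 ± 0.23 on the log2 scale (SE, limma adjusted p = 9.78e-06), a 7.37-fold difference. In both lines siRNA 1 gave the lowest value, while siRNA 2 was the highest in 786-O alone. These values are sums of 2 RefSeq transcripts. The larger in NTC was lowest with siRNA 1 in both lines. The other was higher with siRNA 1 (3.904 FPKM) than in NTC (2.831 and 3.159) in 786-O. An lncRNA entry overlaps the gene and reached 3.26 FPKM at most, and Cufflinks divides reads between overlapping entries.

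VEGFA, the growth factor for blood vessel endothelium, differed less. Its levels were 33.9 and 31.7 FPKM in A498 NTC, 30.0 with siRNA 1 and 33.3 with siRNA 2, and 23.9 and 23.8 FPKM in 786-O NTC, 21.5 with siRNA 1 and 24.6 with siRNA 2. A498 was higher by 0.46 ± 0.055 (log2, SE, limma adjusted p = 0.00012), or 1.37-fold. VEGFA is split into 9 RefSeq transcripts, and a single one held 53.0% to 69.0% of the sum. In 786-O that transcript, unlike the sum, was highest with siRNA 1. It was at 14.42 FPKM there, against 12.67 and 13.66 in NTC and 14.37 with siRNA 2.

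ADM, which encodes the vasodilator peptide adrenomedullin, went the other way. It was at 39.4 and 39.1 FPKM in A498 NTC, 34.6 with siRNA 1 and 39.1 with siRNA 2, and at 47.6 and 47.2 FPKM in 786-O NTC, 41.9 with siRNA 1 and 47.6 with siRNA 2. The A498 libraries were all below the 786-O libraries, by a log2 difference of -0.27 ± 0.053 (SE, limma adjusted p = 0.00178). With the knockdown libraries alone the adjusted p was 0.0758. Apart from siRNA 1, the libraries of each line lay within 1 FPKM of each other, and siRNA 1 stood below them in both lines.

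The carbonic anhydrases CA9 and CA12 are transmembrane enzymes that hydrate carbon dioxide outside the cell, and CA9 is a widely used marker of ccRCC. CA9 was low in A498 and at or near 0 in 786-O (hg19, chromosome 9, 35673915 to 35681154). It was at 0.543 and 0.444 FPKM in A498 NTC, 0.293 with siRNA 1 and 0.559 with siRNA 2. In 786-O it was at 0.0229 FPKM in NTC 2 and listed at 0 in the other 3 libraries. Cufflinks intervals gave whole reads for CA9 in all 8 libraries, within 0.02 of a whole number, with 39, 22, 14 and 19 reads in A498 in the same order and 2 reads in 786-O NTC 2. Over the estimated depth, the A498 rate was 57.8 times the 786-O rate, with an exact 95% interval of 15.6 to 484 that covers counting error only. A count of 0 allows up to 3 reads, which is 0.0472 to 0.0611 FPKM in the 3 libraries at 0. CA9 did not enter the main fit.

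CA12 was abundant by comparison (hg19, chromosome 15, 63615730 to 63674075). It was at 98.9 and 105 FPKM in A498 NTC, 76.6 with siRNA 1 and 97.9 with siRNA 2, and at 37.2 and 36.7 FPKM in 786-O NTC, 27.3 with siRNA 1 and 39.2 with siRNA 2. The lines did not overlap, and A498 was 2.70-fold higher, a log2 difference of 1.43 ± 0.12 (SE, limma adjusted p = 1.46e-05). As for ANGPTL4, siRNA 1 was the lowest library of each line.

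NDRG1, a stress-responsive protein that is strongly induced by hypoxia, was the highest member in both lines. It was at 229 and 231 FPKM in A498 NTC, 196 with siRNA 1 and 209 with siRNA 2, and at 70.1 and 66.8 FPKM in 786-O NTC, 52.5 with siRNA 1 and 63.2 with siRNA 2. Its log2 difference between the lines was 1.78 ± 0.060 (SE, limma adjusted p = 8.94e-08), the smallest p of the tested members. Both knockdown libraries were below both NTC libraries in A498 and in 786-O. The share of all genes with such an order was not computed, so the order only describes these libraries. In A498 the same order held for CA12 and ADM and the opposite one for BNIP3, and in 786-O the opposite one held for P4HA1.

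BNIP3, a mitochondrial protein that promotes mitophagy, was the member with overlapping lines. It was at 42.5 and 49.3 FPKM in A498 NTC, 51.2 with siRNA 1 and 50.4 with siRNA 2, and at 47.1 and 41.6 FPKM in 786-O NTC, 42.2 with siRNA 1 and 39.1 with siRNA 2. The difference of 0.19 ± 0.079 (log2, SE) missed the threshold (limma adjusted p = 0.0616). It passed when A498 NTC 1 (adjusted p = 0.0098) or 786-O NTC 1 (adjusted p = 0.0166) was left out of the limma fit.

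ANKRD37, an ankyrin repeat protein and direct HIF target, was low. It was at 1.48 and 1.40 FPKM in A498 NTC, 1.21 with siRNA 1 and 1.53 with siRNA 2, and at 0.532 and 0.859 FPKM in 786-O NTC, 0.916 with siRNA 1 and 0.514 with siRNA 2. The lines did not overlap and the log2 difference was 0.94 ± 0.20 (SE, limma adjusted p = 0.00315), but with the knockdown libraries alone the adjusted p was 0.0705. ANKRD37 overlaps UFSP2, and the width of its Cufflinks interval equals that of 4.21 to 47.6 reads. Its values are therefore uncertain, and the spread between the 786-O libraries was wide.

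P4HA1, a catalytic subunit of the prolyl hydroxylase that stabilizes collagen, was higher in 786-O (hg19, chromosome 10, 74766980 to 74856732). It was at 21.3 and 24.7 FPKM in A498 NTC, 23.3 with siRNA 1 and 24.6 with siRNA 2, and at 32.6 and 33.3 FPKM in 786-O NTC, 33.5 with siRNA 1 and 33.3 with siRNA 2. The difference was -0.50 ± 0.050 (log2, SE, limma adjusted p = 3.90e-05). The 4 deposited transcripts took shifting parts of the sum, and the part of a single transcript ranged from 5.45% to 54.8% over the A498 libraries. With the highest transcript alone the log2 difference was -1.03 and the adjusted p was 0.254.

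LOX encodes lysyl oxidase, which crosslinks collagen and elastin. It was at 1.73 and 2.03 FPKM in A498 NTC, 1.76 with siRNA 1 and 1.94 with siRNA 2, and at 0.742 and 0.782 FPKM in 786-O NTC, 0.771 with siRNA 1 and 0.799 with siRNA 2. A498 was higher by 1.17 ± 0.083 (log2, SE, limma adjusted p = 5.25e-06). Of the matrix genes, LOX was thus higher and P4HA1 lower in A498.

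By mean level per length in A498, the order was NDRG1, CA12, ANGPTL4, BNIP3, ADM, VEGFA, P4HA1, LOX, ANKRD37 and CA9. Only CA12 and ANGPTL4 among these neighbors had overlapping libraries. In 786-O the order was NDRG1, ADM, BNIP3, CA12, P4HA1, VEGFA, ANGPTL4, LOX, ANKRD37 and CA9, where the libraries of ADM, BNIP3, CA12 and P4HA1 overlapped from each to the next, as did those of LOX and ANKRD37. ANGPTL4 moved from the third place in A498 to the seventh in 786-O.

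Further HIF target genes outside glycolysis, 54 in 5 lists, were set beside the members. Of these, 44 were tested, and between the lines 24 were called higher in A498, 17 lower and 3 not. Their median log2 difference was 0.22, against -0.02 for all genes tested. Of all genes tested, 39.1% were called higher and 41.4% lower, shares that also stand beside the counts of each list below. The lists were chosen with earlier results of these data known. Of the 44, 40 had a mean of at least 1 FPKM in both lines, CXCR4 and EFNA3 in A498 alone, and EDN1 and EFNA1 in 786-O alone. The filter thus favored the direction of CXCR4, EFNA3, EDN1 and EFNA1.

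**Figure D2:**
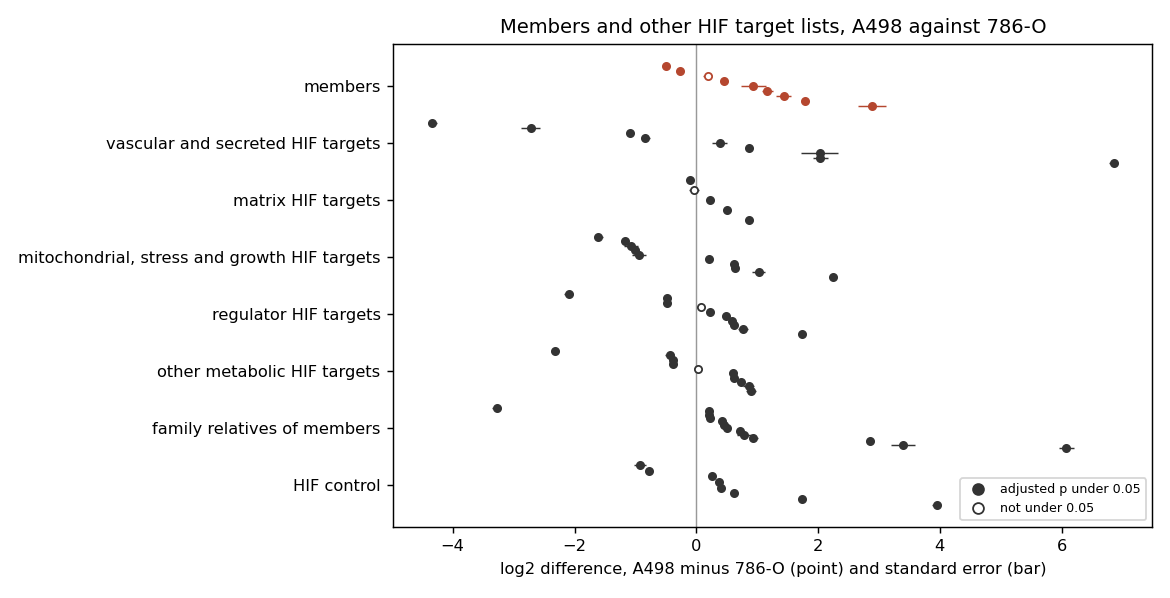
Log2 difference of A498 minus 786-O for each tested gene (point) with its standard error (bar), for the members in red and the other lists in black. Filled points had a limma adjusted p under 0.05, and 8 of 9 members are filled, between -0.50 for P4HA1 and 2.88 for ANGPTL4.

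Among 9 tested vascular and secreted targets, 5 were called higher and 4 lower in A498, counts that include CXCR4, EFNA3, EDN1 and EFNA1. CXCR4, a chemokine receptor, was at 15.2 FPKM on average in A498 and 0.0327 in 786-O (log2 difference 6.85), and TGFA, a ligand of the EGF receptor, was higher by 0.87. EFNA1, an ephrin ligand, differed by -4.34, and STC2, a secreted glycoprotein, by -1.09. The 5 tested matrix targets gave 3 called higher (the integrin ITGA5 at 0.87, the lysyl oxidase relative LOXL2 at 0.51 and the collagen prolyl hydroxylase subunit P4HA2 at 0.22), 1 lower (the lysyl hydroxylase PLOD1 at -0.10) and 1 not called.

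Mitochondrial, stress and growth targets were divided evenly, with 5 of 10 called higher and 5 lower. The lipid droplet protein PLIN2 differed by 2.25 and WSB1, a ubiquitin ligase component, by 0.62 (log2), while HILPDA, which inhibits lipolysis, differed by -1.61 and the mitochondrial protein FAM162A by -1.18. Of 10 regulators, 6 were called higher and 3 lower, with the prolyl hydroxylases EGLN3 at 1.74 and EGLN1 at 0.62, and the transcriptional repressors BHLHE40 at 0.59 and BHLHE41 at -2.10. Of 10 other metabolic targets, 5 were called higher and 4 lower, among them heme oxygenase HMOX1 at 0.90, the glycogen branching enzyme GBE1 at 0.73, INSIG2, a brake on sterol synthesis, at 0.60 and the adenylate kinase AK4 at -2.32.

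Of 23 listed relatives of the members, 13 were tested, with 12 called higher in A498 and 1 lower, against 39.1% and 41.4% of all genes. The list of relatives was chosen with earlier results of these data known, so its counts are a description. CA11, ADM2 and NDRG2 reached 1 FPKM in A498 alone and LOXL1 in 786-O alone, so the filter favored their direction. BNIP3L, P4HA2 and LOXL2 are also in the target lists above. CA11, a carbonic anhydrase relative without catalytic activity, was at a mean of 6.96 FPKM in A498 and 0.00474 in 786-O, ADM2, a relative of adrenomedullin, at 4.71 and 0.563, and NDRG2 at 2.25 and 0.129. LOXL1, a relative of LOX, was the exception at 0.554 and 6.24 FPKM (log2 difference -3.28). P4HA2 and P4HA1 thus had opposite directions between the lines, as did LOX and LOXL1. Of the 8 genes that control HIF, which include EGLN1 and EGLN3 from the regulators, 6 were called higher and 2 lower in A498, and VHL was among the lower ones (log2 difference -0.78).

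Knockdown of SLINKY, with both siRNAs taken as replicates, gave no call among the members. Over both lines 0 of 9 had an adjusted p under 0.05 in limma, against 0.0088% of all genes, and 1 had an unadjusted p under 0.05, against 11.5% of all genes. That member was NDRG1, with a log2 difference of -0.22 ± 0.060 (SE, limma adjusted p = 0.362). The unadjusted count was 3 of 9 without the 786-O siRNA 2 library, against 1314 of all 11367 genes. Within A498, 0 of 9 were called (0.176% of all genes), with 1 unadjusted (NDRG1 at -0.19; 4.3% of all genes), and within 786-O 0 of 9 (0.141%), with 0 unadjusted (4.21%). These unadjusted counts rested on single libraries, since in both lines they changed when either siRNA library was left out. Such fits have a lone library in the knockdown arm, so their counts are not given. The effect of knockdown was not called different between the lines for any member (0 of 9 against 0.141% of all genes, and 0 unadjusted against 1.93%).

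The median knockdown effect of the members over both lines was -0.03 on the log2 scale, against 0.01 for all genes tested. Among the 44 tested genes of the other target lists 0 were called in this comparison by limma (0.0088% of all genes). An unadjusted p under 0.05 was found for 3 (11.5% of all genes). The smallest unadjusted p in those lists belonged to WSB1 (log2 difference 0.16, limma adjusted p = 0.342), followed in the other lists by EDN1, which encodes the vasoconstrictor endothelin (0.40, adjusted p = 0.418), TFRC, the transferrin receptor (0.11, adjusted p = 0.44), BHLHE41 (0.17, adjusted p = 0.446) and PLOD2, a lysyl hydroxylase (0.10, adjusted p = 0.646). The next gene of each list was PLIN2 at -0.13, APLN, the ligand apelin, at -0.23, INSIG2 at 0.10, KDM4C, a histone demethylase, at 0.15 and PLOD1 at -0.02, all with a limma adjusted p of 0.434 or more. Of the genes that control HIF, the prolyl hydroxylase EGLN2 differed by -0.18 (adjusted p = 0.334) and VHL by 0.17 (adjusted p = 0.362), and of the relatives of members VEGFC, a growth factor for lymphatic vessels, differed by 0.14 (adjusted p = 0.384) and the cytosolic carbonic anhydrase CA2 by 0.18 (adjusted p = 0.43).

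The values of the siRNAs lay apart for several members, so each was also given its own effect over both lines in a limma fit that was added after the values had been seen. With siRNA 1, 5 of the 9 tested members (VEGFA, CA12, ADM, NDRG1 and ANGPTL4) had their lowest summed value in the siRNA 1 library of both lines, against 7.6% of all genes. In A498 alone this held for 6 of 9 (17.3% of all genes), with ANKRD37 added, and in 786-O alone for 5 of 9 (22.7%). With siRNA 2, 0 of 9 were lowest in both lines (10.7%). In 786-O siRNA 2 gave the highest of the 4 values for 5 of 9, against 25.1% of all genes. These were VEGFA, CA12, ADM, ANGPTL4 and LOX, while BNIP3 and ANKRD37 were lowest with siRNA 2 there. In A498 siRNA 2 was the highest for 1 of 9 (ANKRD37), and in both lines for 0 of 9, so the 786-O pattern was not seen in A498.

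**Figure D3:**
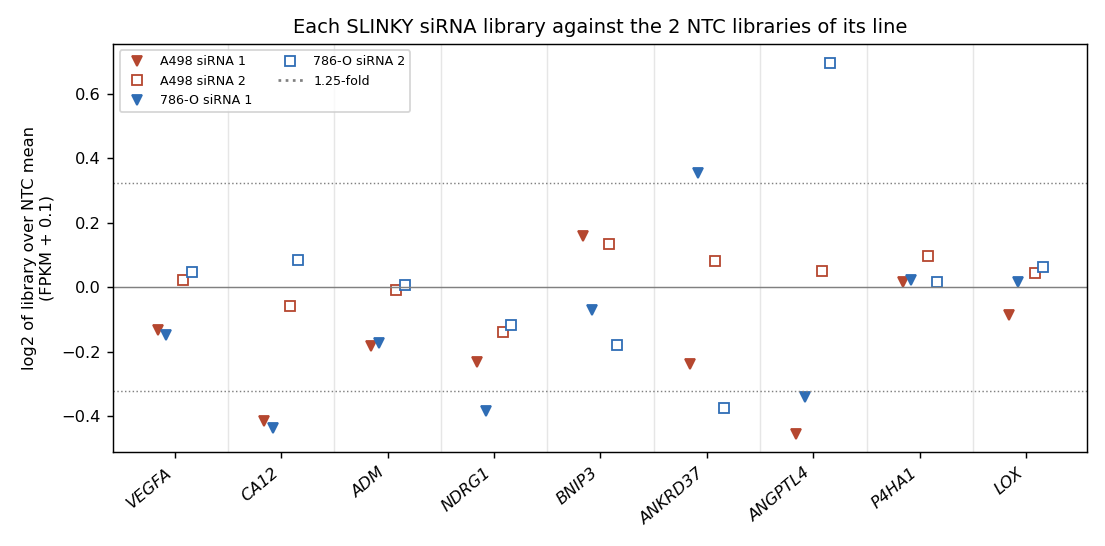
Log2 ratio of each siRNA library to the mean of the NTC libraries of its line, after adding 0.1 FPKM, for the 9 tested members (A498 red, 786-O blue, triangles siRNA 1, squares siRNA 2). Dotted lines mark the fold threshold of the study, 25% above or 20% below the NTC mean. The siRNA 1 points of CA12 lie at -0.41 and -0.44, those of siRNA 2 at -0.06 and 0.08, and the 786-O siRNA 2 library is highest for ANGPTL4 at 0.70.

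Relative to the NTC mean of its line, CA12 in the siRNA 1 library was 25.0% lower in A498 and 26.3% lower in 786-O. The corresponding values were 27.1% and 21.3% for ANGPTL4, 14.9% and 23.4% for NDRG1, 11.9% and 11.4% for ADM and 8.76% and 9.75% for VEGFA. The siRNA 2 libraries were at 95.9% and 106% of the NTC mean for CA12 and at 99.5% and 100.5% for ADM. For ANGPTL4 siRNA 2 stood at 104% in A498 and at 163% in 786-O, and for NDRG1 at 90.7% and 92.3%. In the same libraries SLINKY was at 10.7% and 4.0% of the NTC mean with siRNA 1, and at 19.7% and 41.8% with siRNA 2; the part of this difference in the members' levels was not tested.

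No member passed the adjusted threshold for either siRNA. For siRNA 1, 0 of 9 were called (0.0704% of all genes) and 5 had an unadjusted p under 0.05 (10.1% of all genes). CA12 differed from NTC by -0.43 ± 0.050 on the log2 scale (SE, limma adjusted p = 0.077). NDRG1 differed by -0.31 ± 0.049 (adjusted p = 0.142), ADM by -0.18 ± 0.032 (adjusted p = 0.176), VEGFA by -0.14 ± 0.040 (adjusted p = 0.375) and ANGPTL4 by -0.40 ± 0.14 (adjusted p = 0.442). BNIP3, ANKRD37, P4HA1 and LOX lay between -0.03 and 0.07. Over the left-out libraries, the unadjusted count for siRNA 1 was lowest without the 786-O siRNA 1 library, which leaves siRNA 1 a lone library. The number for all genes was lowest there too. When genes that span under 200 bp were left out of the limma fit, 2 members were called, CA12 (adjusted p = 0.0124) and NDRG1 (adjusted p = 0.0445). The number of all genes called for siRNA 1 moved as well. It was 8 in the main fit and 3 to 52 over the alternatives that kept every library.

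For siRNA 2, 0 of 9 were called (0.0352% of all genes) and 2 had an unadjusted p under 0.05 (12.6%). These were NDRG1 at -0.13 ± 0.049 (log2, SE, limma adjusted p = 0.373) and ANGPTL4 at 0.37 ± 0.14 (adjusted p = 0.364). The ANGPTL4 value rested on 786-O, since leaving out the 786-O siRNA 2 library moved it to 0.07. The unadjusted count for siRNA 2 was 0 without A498 NTC 2 (1771 of all 11367 genes), without 786-O NTC 1 (1568) or without 786-O NTC 2 (912). It also fell without the 786-O siRNA 2 library, which leaves siRNA 2 a lone library. The siRNAs share their NTC libraries, and the difference between them was fitted directly.

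**Figure D4:**
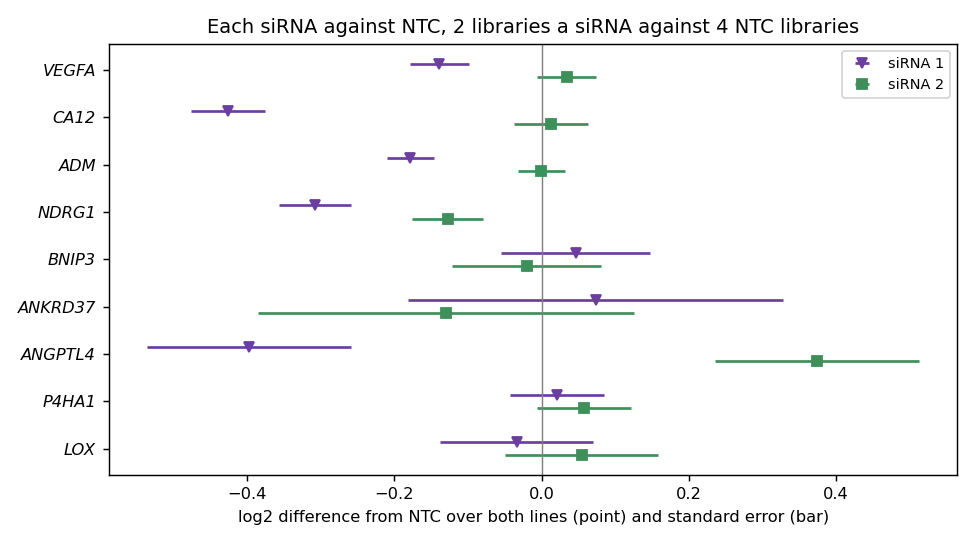
Log2 difference from NTC over both lines (point) and standard error (bar) for siRNA 1 (purple triangles) and siRNA 2 (green squares) in the 9 tested members. The siRNA 1 effect lies below the siRNA 2 effect, with error bars apart, for VEGFA, CA12, ADM, NDRG1 and ANGPTL4. With siRNA 1 these run from -0.43 for CA12 to -0.14 for VEGFA. The siRNA 1 effect also lies below for P4HA1 and LOX, but there the error bars meet, as they do for BNIP3 and ANKRD37.

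Between the siRNAs, 0 of 9 members were called (0.0528% of all genes) and 5 had an unadjusted p under 0.05 (8.82%). The difference of siRNA 1 minus siRNA 2 was -0.77 ± 0.16 for ANGPTL4 (log2, SE, limma adjusted p = 0.232) and -0.44 ± 0.058 for CA12 (adjusted p = 0.0843). It was -0.18 ± 0.037 for ADM (adjusted p = 0.234), -0.18 ± 0.056 for NDRG1 (adjusted p = 0.421) and -0.17 ± 0.047 for VEGFA (adjusted p = 0.37). CA12 was called without the genes that span under 200 bp. Of all genes, 6 were called in the main fit and 3 to 49 over the alternatives that kept every library.

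Past the fold threshold of the study (25% above or 20% below the NTC mean), A498 siRNA 1 had 2 of 9 members (CA12 and ANGPTL4, both lower; 5.57% of all genes) and A498 siRNA 2 had 0 (7.41%). In 786-O, siRNA 1 had 4 (CA12, NDRG1 and ANGPTL4 lower, ANKRD37 higher; 7.54%) and siRNA 2 had 2 (ANGPTL4 higher, ANKRD37 lower; 5.77%). With 1 library per siRNA and line these counts have no replicate check. The median log2 ratio of the members was -0.18 in A498 siRNA 1 and -0.15 in 786-O siRNA 1, against medians near 0 for all genes (0.0045 and 0.011), and 0.04 and 0.01 for siRNA 2. Over all genes, NTC 1 and NTC 2 differed by a median of 0.109 (absolute log2 scale) in A498 and 0.0869 in 786-O.

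In the other target lists 0 of 44 tested genes were called by limma for siRNA 1 (0.0704% of all genes). For siRNA 1, 10 had an unadjusted p under 0.05 (10.1% of all genes), and the median log2 difference was -0.0001. For siRNA 2, 0 were called (0.0352%) and 2 had an unadjusted p under 0.05 (12.6%), with a median of 0.06. The median of the members for siRNA 1 was -0.14, and that of all genes tested was 0.01. The target gene outside the members with the smallest p for siRNA 1 was STC1, which encodes the secreted glycoprotein stanniocalcin and is named here after its values were seen. It was at 4.51 and 4.89 FPKM in A498 NTC, 2.69 with siRNA 1 and 5.12 with siRNA 2, and at 1.26 and 1.06 FPKM in 786-O NTC, 0.461 with siRNA 1 and 1.28 with siRNA 2. Like CA12, it was lowest with siRNA 1 in both lines, by -0.97 ± 0.12 (log2, SE, limma adjusted p = 0.077). The cell cycle gene CCND1, named in the same way, differed by -0.44 ± 0.054 (adjusted p = 0.0859).

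The gene whose pattern over the 8 libraries was most like that of each member was found by Pearson correlation of log2(FPKM + 0.1). The values are a description, since every coefficient spans both lines. For NDRG1 it was SDC1, a cell surface proteoglycan (r = 0.999), for ANGPTL4 the death receptor gene TNFRSF10B (0.999), for CA12 DTX4 (0.998), for VEGFA the adaptor gene MYD88 (0.996), and for LOX PKIA, a protein kinase A inhibitor (0.999). For P4HA1 it was RALGPS2 (0.998), for ADM ACTG1P20, an actin pseudogene whose reads may be shared with actin genes (0.994), for ANKRD37 CPT1B (0.972) and for BNIP3 DIMT1 (0.969). The members with overlapping or noisy levels, BNIP3 and ANKRD37, had the lowest coefficients.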

How the data were processed

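The study made the 8 libraries from total RNA with an Illumina TruSeq RNA kit and sequenced them as single-end 36-bp reads. The authors mapped the reads to hg19 and deposited FPKM values with their intervals, computed by Cufflinks 2.0.2 in each library after TopHat2 2.0.0 per the labels; no scaling between libraries is stated. Cufflinks divides reads between overlapping entries. Of 75378 entries, 43150 are RefSeq transcripts, and 96.6% of these were given a symbol from a RefSeq table (GRCh38, names only). FPKM was summed per symbol. FPKM values are not counts, so no count model was fitted. Reads of CA9 were recovered from the interval, whose width follows the square root of the read number.

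Differences were tested with limma 3.58.1 in R 4.3.3 on log2(FPKM + 0.1), with a variance trend and Benjamini-Hochberg adjustment at 0.05 over all 11367 genes with a mean of at least 1 FPKM, and with the cell line and knockdown as terms. The pseudocount understates the change of low genes. The script was tested on simulated data. Depth was estimated between 25097617 and 64600588 reads. Other calculations used Python 3.11.15, pandas 2.3.3 and scipy 1.17.1.

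The members and lists were chosen with earlier results of these data known. Named genes were all members, VHL, HIF1A, EPAS1, SLINKY, from each list up to 4 genes with the smallest p between the lines and up to 2 with the smallest p for knockdown, and the gene most alike to each member. STC1, CCND1 and the marker genes CD68, PTPRC, CD3E, COL1A1, DCN and PDGFRB fall outside this rule. They were named after their values were seen, as were list genes named for the filter or for shared lists. The pseudocount, filter, scaling, choice of transcripts, short genes, replicate block and each left-out library were varied.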

Additional observations from a re-analysis of the deposited data

Results flagged for a closer look

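In each line, 1 library of 4 was searched for a value far from the other 3, and chance alone picks out about 1 in 20 such groups. ADM was picked out in both lines. Its siRNA 1 library was at 34.6 FPKM in A498, where the other 3 lay between 39.1 and 39.4, and at 41.93 FPKM in 786-O, where the other 3 lay between 47.2 and 47.6. CA9 was picked out in 786-O, where NTC 2 was at 0.02287 FPKM and the other 3 libraries were at 0; this value rests on 2 reads.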

How the results depend on the processing

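Between the lines, 6 to 9 members were called under every alternative tried, and the members that were called kept their direction. ADM and ANKRD37 lost their calls with the knockdown libraries alone, P4HA1 lost its call with the highest transcript of each gene, where LOX fell under the filter, and BNIP3 gained one under scaling by median ratios, without short genes, with the knockdown libraries alone and without either line's NTC 1. CA9 was called without the filter on level. Over all genes the number called was 9150, and 7784 to 12569 under the alternatives.

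For knockdown over both lines and within each line, and for the interaction, 0 members were called under every alternative. For siRNA 1 the number was 2 without genes that span under 200 bp (CA12 and NDRG1). For siRNA 1 against siRNA 2 it was 1 without those genes and 0 to 1 when a library was left out. Past the fold threshold, A498 siRNA 2 had 1 member with the highest transcript alone, 786-O siRNA 1 had 2 and 786-O siRNA 2 had 1 with a pseudocount of 1 FPKM, and when an NTC library was left out 786-O siRNA 1 had 3 and 786-O siRNA 2 had 1 to 2, 1 without NTC 2. The causes were not tested.

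The number of all genes called moved more. It was 1 for knockdown over both lines (0 to 3 over all alternatives, left-out libraries included), 20 within A498 (0 to 61), 16 within 786-O (0 to 41), 16 for the interaction (1 to 38), 8 for siRNA 1 (1 to 52), 4 for siRNA 2 (2 to 26) and 6 between the siRNAs (3 to 49). Past the fold threshold it was 633 and 842 in A498 siRNA 1 and siRNA 2 (415 to 2272 and 533 to 2847), and 857 and 656 in 786-O (520 to 2185 and 417 to 1734). A lone library left in an arm was assumed to vary like the other groups.

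Effects near 0 changed sign. For knockdown over both lines, LOX moved to -0.001446 under scaling and VEGFA to 0.08595 with the highest transcript, which also moved VEGFA to 0.0435 for siRNA 1. For siRNA 2, CA12 moved to -0.001774 under scaling. Leaving out a library gave ranges across 0 for knockdown in BNIP3 (-0.05679 to 0.07572), ANKRD37 (-0.1838 to 0.1071), ANGPTL4 (-0.2571 to 0.1581), P4HA1 (-0.007345 to 0.07704) and LOX (-0.02926 to 0.06069). For siRNA 1 they were -0.02341 to 0.1091 (BNIP3), -0.3084 to 0.4548 (ANKRD37), -0.02563 to 0.05875 (P4HA1) and -0.08084 to 0.01645 (LOX), and for siRNA 2 -0.006678 to 0.005525 (ADM), -0.1401 to 0.099 (BNIP3), -0.06318 to 0.08834 (CA12) and -0.4468 to 0.186 (ANKRD37).

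The numbers in the labels are a replicate number for NTC and an siRNA number for knockdown, and nothing in the labels says that they pair libraries. NTC 1 with siRNA 1, taken as departures from the mean of their own group, correlated at -0.004792 in A498 and 0.006361 in 786-O, and at 0.1706 and 0.02268 without genes that span under 200 bp. With the replicate number as a block, 8 members were called between the lines and 0 for knockdown. The members with an unadjusted p under 0.05 were 5 for siRNA 1 and 0 for siRNA 2, against 1030 and 788 of all 11367 genes. The block moved LOX to 0.03879 for siRNA 1, and for siRNA 2 CA12 to -0.005695, ADM to 0.00529, P4HA1 to -0.002245 and LOX to -0.01849.

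Each siRNA had 1 library per line and each line is 1 cell line in its own medium. Intervals cover counting error only. CA9 and ANKRD37 rest on few reads.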
